A study of Mus musculus with 36 samples.

Results

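The genes described here are 10 genes of the fibroblasts that build the membranes around the brain, namely the fibrillar collagen genes *Col1a1*, *Col1a2* and *Col3a1*, the small leucine-rich proteoglycan genes *Dcn*, *Lum*, *Fmod* and *Ogn*, the collagen-binding gene *Aebp1*, the growth factor gene *Igf2* and the GABA transporter gene *Slc6a13*. They were taken by name, as the 10 rows with these symbols among the 55450, 53379 and 54146 gene rows of the 1-, 2- and 3-month tables. All 10 passed the filter on low counts at every age. Total RNA came from the forebrain/midbrain (F/M) or the cerebellum (Cb) of *Tpp1*-/- mice and controls aged 1, 2 or 3 months, and each of 12 groups had 3 libraries, 36 libraries in all. *Tpp1*-/- mice carry a targeted disruption of *Tpp1*, which encodes a lysosomal protease, and are a model of the childhood disease classical late infantile neuronal ceroid lipofuscinosis. The controls were unaffected siblings from heterozygous crosses and were labelled wild type, except that control replicate 3 of 1 month was *Tpp1*+/- in both regions. All mice of 2 months were male, replicate 1 of each group was female at 1 month and replicate 3 was female at 3 months, and no agent was given. Whether the meninges were left on the tissue is not given in the sources used here.

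Meningeal fibroblasts of the pia, arachnoid and dura lay down the collagen matrix that encloses the brain, and a smaller number of related cells line its larger vessels. Type I collagen is a trimer of the products of *Col1a1* and *Col1a2*, and type III collagen, the product of *Col3a1*, joins it in fibrils. Decorin (*Dcn*), lumican (*Lum*) and fibromodulin (*Fmod*) bind fibrils and regulate their assembly, and osteoglycin (*Ogn*) belongs to the same proteoglycan family. *Aebp1* encodes a secreted protein that binds collagen, *Igf2* is an imprinted gene for insulin-like growth factor 2, which meningeal cells release, and *Slc6a13* encodes GAT2, a GABA transporter of the meninges. In RNA from whole tissue, fewer cells of a type and less RNA per cell cannot be told apart.

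The summed gene counts of a library ran from 10609896 to 29942380, and their median was 21049839. *Tpp1* stood at 42.1 to 111 CPM (gene counts scaled to a common library size by TMM) in control libraries, with the *Tpp1*+/- libraries among them, and at 16.1 to 27.8 CPM in *Tpp1*-/- libraries, and at each age the 2 genotypes did not overlap. In F/M of 1 month, *Tpp1*-/- replicate 1 stood apart with 33.7 CPM of *Col1a1* and 49.8 CPM of *Col1a2*. In Cb of 3 months, control replicate 3 stood apart with the highest level in its group for 7 of the 10 genes and the lowest for the other 3. That library also had 2440 CPM summed over 20 choroid plexus genes, 262 CPM over 5 blood genes and 103 CPM over 11 midbrain and thalamus genes, against 1740 and 1780, 90.8 and 80.7, and 192 and 187 CPM in the other 2 controls. Both libraries were from the female of their group. Of 37 further genes of meningeal fibroblasts and arachnoid cells none was at 0 in a whole group, and their summed level lay between 310 and 484 CPM in every library. None of the listed genes of endothelium, mural cells or choroid plexus was at 0 in a whole group either, so this does not tell cell types apart.

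Levels between genes were compared in CPM per kilobase of exon that is not shared with another gene on the same strand. The order in control F/M at 1 month was *Ogn* (5.85 ± 0.775, SD, n = 3), *Fmod* (4.84 ± 0.76), *Aebp1* (4.27 ± 0.467), *Dcn* (3.88 ± 0.14), *Slc6a13* (3.02 ± 0.182), *Col1a2* (2.35 ± 0.131), *Col1a1* (1.97 ± 0.444), *Igf2* (1.88 ± 0.205), *Lum* (1.67 ± 0.132) and *Col3a1* (1.31 ± 0.0904). In the controls of every age and region *Ogn* and *Fmod* held the first 2 places, *Aebp1* the third, *Dcn* the fourth and *Slc6a13* the fifth or the sixth. *Fmod* and *Aebp1* lay closer together than the SD of *Fmod*, as did *Aebp1* and *Dcn* than the SD of *Aebp1*, and *Col1a2*, *Igf2* and *Lum* each lay closer to *Col1a1* than its SD, so these neighbours did not differ beyond their spread. At 3 months *Col3a1* was at 0.342 ± 0.05 per kilobase in control F/M and 0.568 ± 0.0599 in control Cb, the lowest of the 10 in both regions.

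**Figure D1:**
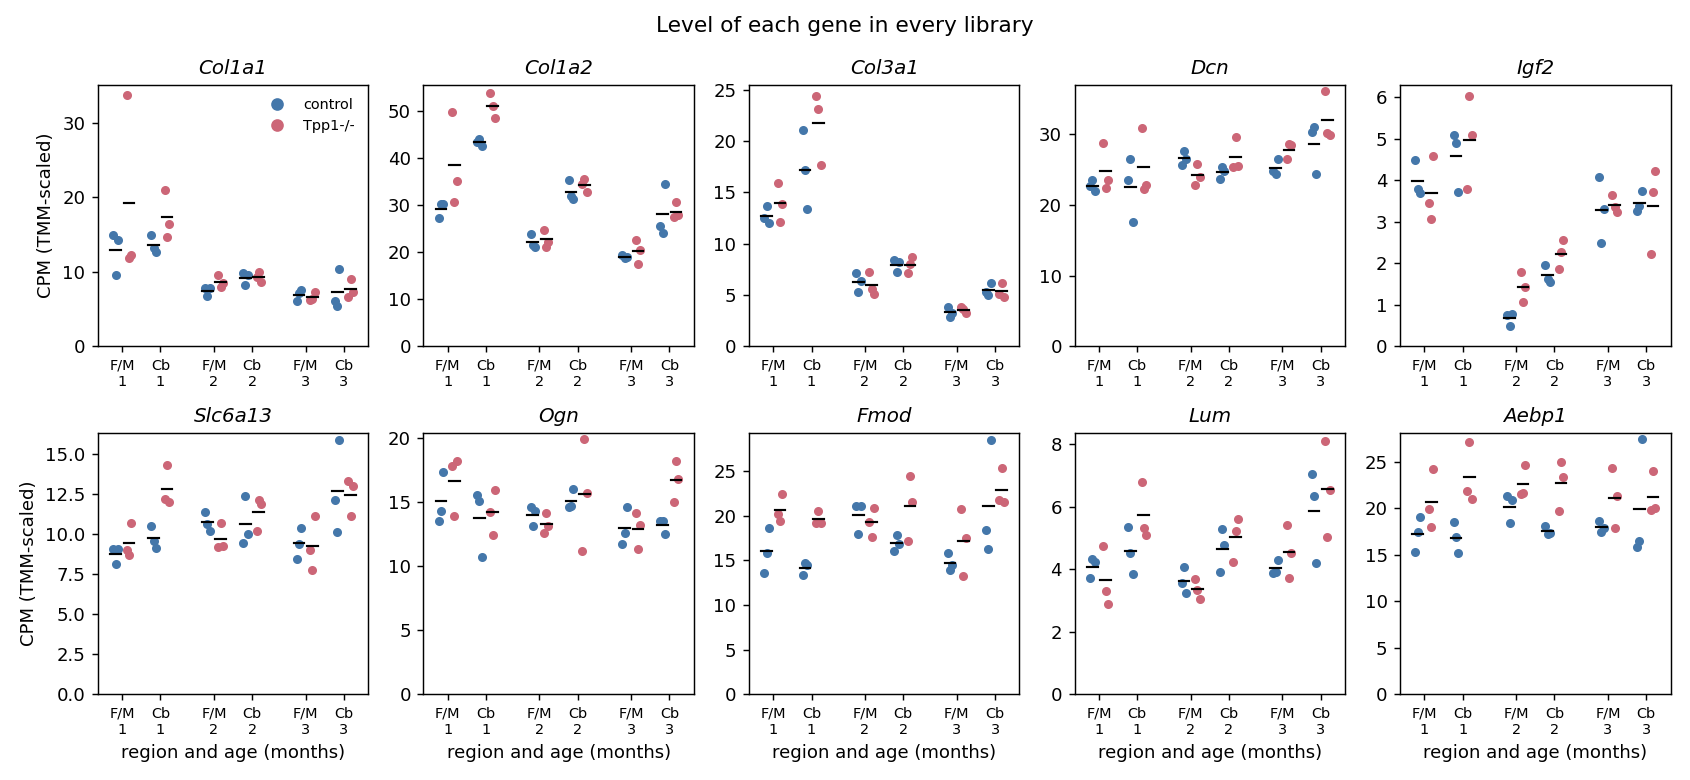
TMM-scaled CPM of each gene in all 36 libraries, by region and age in months, with control libraries in blue, *Tpp1*-/- libraries in red and the mean of 3 libraries as a black bar; each panel has its own scale from 0. *Tpp1*-/- replicate 1 in F/M at 1 month lies far above the rest in *Col1a1*, and the red and blue points overlap in most groups.

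The positions are those of GRCm38, as in the count tables. *Col3a1* (chromosome 1, 45311538 to 45349706) and *Fmod* (chromosome 1, 134037254 to 134048277) lie on the plus strand, as do *Col1a2* (chromosome 6, 4504814 to 4541544) and *Slc6a13* (chromosome 6, 121300227 to 121337733). *Dcn* (chromosome 10, 97479609 to 97518143) and *Lum* (chromosome 10, 97565128 to 97572703) are neighbours on the plus strand with 46984 bases between them. *Aebp1* (chromosome 11, 5861947 to 5872088), *Col1a1* (chromosome 11, 94936224 to 94953042) and *Ogn* (chromosome 13, 49608046 to 49624501) are also on the plus strand. *Igf2* (chromosome 7, 142650766 to 142666816) is on the minus strand. Exon lengths of the 10 genes were identical in the 3 annotations used.

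*Igf2* was counted over a minor part of its exons. Of its 5723 exon bases, 3596 (62.8%) are shared on the same strand with a second annotated gene named *Gm49394* in the 1-month table, and a read there overlaps both genes. The shared part holds 546 of its 678 coding bases. The 2127 bases left (37.2%) lie in 8 pieces, the longest of which spans 1126 bases (chromosome 7, 142658364 to 142659489). The second gene had 0 to 2 counts in every library, and *Igf2* had 71 to 126 counts at 1 month, 10 to 51 at 2 months and 40 to 90 at 3 months. Its values thus cover the unshared part, and its lowest count, 10, was the lowest of the 10 genes.

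*Igf2* in F/M at 2 months was the single call among the 10 genes over the 6 comparisons of *Tpp1*-/- with control mice. A gene was called with an adjusted p under 0.1 (edgeR quasi-likelihood test, two-sided, Benjamini-Hochberg) and a change of 1.5 times or more. The question of these comparisons is whether loss of *Tpp1* changes the transcripts of the brain, and here those of its coverings, before and during the onset of disease.

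At 1 month, 0 of 10 genes were called in F/M and 0 of 10 in Cb, where 0.0112% of all 17916 genes were called in each region. The adjusted p was 1 for each of the 10 in F/M and at least 0.63 in Cb, and DESeq2 and limma-voom also called 0. In F/M 2 genes had an unadjusted p under 0.05, as did 1.89% of all genes. In Cb all 10 log2 fold changes were above 0, from 0.05 to 0.47, with a median of 0.34 beside 0.0061 over all genes, and an unadjusted p under 0.05 was reached by 3 of them and by 7.66% of all genes. *Fmod* was at 13.4, 14.7 and 14.5 CPM in the Cb controls and at 19.2, 20.5 and 19.2 CPM in *Tpp1*-/- mice (log2 fold change 0.47 ± 0.11, SE, adjusted p = 0.63). *Aebp1* was at 18.5, 16.9 and 15.2 CPM in controls and 21.9, 27.1 and 21 CPM in *Tpp1*-/- mice (0.47 ± 0.13, adjusted p = 0.63). *Slc6a13* was at 10.5, 9.55 and 9.13 CPM against 12.2, 14.3 and 12 CPM (0.40 ± 0.12, adjusted p = 0.63). For these 3 genes and *Col1a2* the *Tpp1*-/- libraries lay wholly above the controls, 4 of 10 genes, where 7.97% of all genes tested did not overlap in either direction. The heterozygous control, replicate 3, had the lowest level of its group for 9 of the 10 genes, and without it 8 were above 0 with a median of 0.23 and a lowest adjusted p of 0.947. Without *Tpp1*-/- replicate 1 the median was 0.21. Without *Tpp1*-/- replicate 3 the lowest adjusted p was 0.0544. Choroid plexus epithelium, which lies beside the cerebellum in the fourth ventricle, lay on the same side, since 20 of its 20 genes were above 0 with a median of 0.62, none called, and their summed level was 1850, 1280 and 662 CPM in controls and 1590, 1760 and 2610 CPM in *Tpp1*-/- mice. Of the 36 further meningeal genes tested, 27 were above 0 with a median of 0.20 and none was called. All 5 blood genes and all 5 ependymal genes were also above 0, with medians of 0.42 and 0.29 and none called. The part of other tissue in these differences was not tested.

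In F/M at 1 month, 8 of 10 log2 fold changes were above 0, with a median of 0.14 beside −0.0038 over all genes. Without *Tpp1*-/- replicate 1 the median was 0.06 and 7 were above 0, and without *Tpp1*-/- replicate 2, the lowest of its group for 9 of the 10 genes, it was 0.25. *Col1a1* was at 14.9, 9.56 and 14.3 CPM in controls and at 33.7, 11.8 and 12.2 CPM in *Tpp1*-/- mice, a log2 fold change of 0.58 ± 0.32 (SE, adjusted p = 1) that rested on replicate 1. Without that library it was −0.10. *Col1a2* was at 27.3, 30.2 and 30.2 CPM against 49.8, 30.7 and 35.1 CPM (0.40 ± 0.14, adjusted p = 1), and at 0.17 without replicate 1. *Col1a2* and *Fmod* (16 ± 2.51 and 20.6 ± 1.58 CPM, SD, n = 3) were the 2 genes whose groups did not overlap, where 14.8% of all genes did not. With no filter on low counts *Col1a1* was called in F/M, at an adjusted p of 0.052, among 16 of 33518 genes. Of the lists of other genes, all 5 blood genes were above 0 (median 0.21) and so were 26 of 36 further meningeal genes (median 0.07), none called. The summed level of the blood genes was 142, 160 and 146 CPM in controls and 188, 149 and 173 CPM in *Tpp1*-/- mice, highest in replicate 1, and its part in these values was not tested.

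At 2 months in F/M, *Igf2* was at 0.752, 0.483 and 0.786 CPM in controls and at 1.79, 1.07 and 1.43 CPM in *Tpp1*-/- mice. The *Tpp1*-/- libraries lay above all controls, with a log2 fold change of 1.11 ± 0.29 (SE, adjusted p = 0.0699). The counts behind these values were 16, 10 and 15 in controls and 36, 17 and 15 in *Tpp1*-/- mice, and they fall on the minor part of the exons described above. It was the 1 member of 10 called, higher, where 0.737% of 17229 genes were called. The call was lost with only the 6 F/M libraries in the fit (adjusted p = 0.193), at an adjusted p under 0.05, and without any of 5 libraries. The adjusted p was 0.176 without F/M control replicate 2, 0.155 without F/M control replicate 3 and 0.192 without F/M *Tpp1*-/- replicate 3. It was 0.104 without Cb control replicate 3, which is in the same fit but not in the comparison. Without F/M *Tpp1*-/- replicate 1 the log2 fold change was 0.85 and the adjusted p 0.376. DESeq2 gave the gene no adjusted p. Of the 13 other genes of insulin-like growth factor signalling, such as its receptors and binding proteins, none was called in *Tpp1*-/- mice at any age in either region.

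The other 9 genes in F/M at 2 months had log2 fold changes from −0.14 to 0.22, with a median over all 10 of −0.05 that was 0.02 without control replicate 1, and 9 of the 10 intervals at the 95% level lay inside a change of 1.5 times in either direction. *Col1a1* was at 7.9, 6.76 and 7.81 CPM in controls and 9.52, 7.95 and 8.51 CPM in *Tpp1*-/- mice (0.22 ± 0.12, adjusted p = 0.377). *Dcn* was at 25.6, 27.6 and 26.5 CPM against 22.8, 25.7 and 23.9 CPM (−0.14 ± 0.08, adjusted p = 0.417). *Igf2*, *Col1a1* and *Aebp1* were the 3 of 10 whose groups did not overlap, with 18.3% of all genes. Choroid plexus genes were called higher in this comparison, 10 of 20, among them *Slc4a5*, a bicarbonate transporter (1.93 ± 0.487 to 5.14 ± 1.26 CPM, SD, n = 3, log2 fold change 1.43, adjusted p = 0.00202), and *Prlr*, *Tmem72*, *Cldn2* and *F5* (log2 fold changes of 1.13, 1.24, 1.13 and 1.43), with overlapping groups for *F5* (3.62 ± 2.03 and 9.39 ± 4.9 CPM). Serotonin neuron genes *Tph2* and *Slc6a4* were called higher too, by 1.93 and 2.60 on the log2 scale, from overlapping groups. All 11 midbrain and thalamus genes, which include them, were above 0 (median 0.47), and their summed level was 174 to 184 CPM in controls and 234 to 260 CPM in *Tpp1*-/- mice, without overlap. The part of other tissue in the *Igf2* difference was not tested.

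In Cb at 2 months, *Aebp1* came nearest to a call. It was at 18.1, 17.2 and 17.4 CPM in controls and at 19.7, 25 and 23.4 CPM in *Tpp1*-/- mice, and the groups did not overlap. Its log2 fold change of 0.37 ± 0.10 (SE, adjusted p = 0.0518) passed the test but stayed under a fold of 1.5, and without Cb *Tpp1*-/- replicate 2 the adjusted p was 0.311. It was also above 0.1 without Cb *Tpp1*-/- replicate 3 or Cb control replicate 2 or 3. *Fmod*, at 16.1, 17.8 and 16.8 CPM against 17.2, 24.4 and 21.5 CPM, had 0.31 ± 0.11 (adjusted p = 0.283). None of the 10 genes was called by edgeR, DESeq2 or limma-voom, where edgeR called 2.05% of all genes. An unadjusted p under 0.05 was reached by 2 of the 10 and by 9.67% of all genes, and *Aebp1* was the 1 whose groups did not overlap, where 18.1% of all genes did not. The median of the 10 was 0.08, and 8 of 10 intervals lay inside a change of 1.5 times. The median was 0.19 without Cb *Tpp1*-/- replicate 1, 0.16 without Cb control replicate 2 and 0.04 without Cb *Tpp1*-/- replicate 2.

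Other matrix genes moved in that comparison. *Col8a1*, a short-chain collagen of vessel and choroid plexus matrix, rose from 7.85 ± 0.531 to 14.3 ± 0.558 CPM (SD, n = 3, log2 fold change 0.87 ± 0.12, adjusted p = 0.000143). *Col25a1*, a transmembrane collagen of neurons, fell from 8.04 ± 1.74 to 2.84 ± 0.679 CPM (−1.49 ± 0.17, adjusted p = 1.87e-05). *Col11a1*, which nucleates fibrils, fell from 7.12 ± 0.364 to 4.42 ± 0.862 CPM (−0.67 ± 0.15, adjusted p = 0.0165). These were the 3 calls among 20 other collagen genes, 1 higher and 2 lower, in Cb at 2 months. *Ngfr*, the p75 neurotrophin receptor, was the 1 call among 36 further meningeal genes tested (3.81 ± 0.144 to 5.73 ± 0.689 CPM, log2 fold change 0.59, adjusted p = 0.0332). None of the 23 genes of collagen processing and fibre assembly and none of the 8 other small leucine-rich proteoglycan genes tested was called between the genotypes at any age.

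The Cb libraries of 2 months differed in other tissue as well. Of 11 genes of midbrain and thalamus neurons 6 were called lower in *Tpp1*-/- mice, the transcription factor genes *Pax7*, *Pou4f2*, *Lhx9*, *Tcf7l2* and *Pou4f1* with the largest changes (log2 −4.82, −3.89, −3.49, −3.00 and −2.96). The summed level of the 11 was 135 to 172 CPM in controls and 38.7 to 58.8 CPM in *Tpp1*-/- mice. Choroid plexus genes were called higher, 10 of 20, with *Aqp1*, *Sostdc1*, *Prlr*, *Calml4* and *Slc4a5* at 0.96, 0.92, 0.90, 0.80 and 0.78 on the log2 scale, and their sum was 1870 to 2240 CPM in controls and 2930 to 3210 CPM in *Tpp1*-/- mice. *Slc6a11*, the GABA transporter GAT3 of astrocytes, fell from 171 ± 26.9 to 78.6 ± 13 CPM (−1.12, adjusted p = 4.76e-06), the 1 call among 3 other GABA transporter genes, beside 0.09 ± 0.12 (adjusted p = 0.912) for *Slc6a13*. Whether these tissues bear on the values of the 10 genes was not tested.

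At 3 months, 0 of 10 genes were called in F/M and 0 of 10 in Cb, where 0.464% and 0.859% of 17224 genes were called. DESeq2 and limma-voom also called 0, and 0 genes of F/M and 1 of Cb had an unadjusted p under 0.05, as did 5.94% and 6.49% of all genes. The adjusted p was 1 for every gene in F/M and at least 0.529 in Cb. *Ogn* in Cb, at 13.5, 13.5 and 12.5 CPM in controls and 15, 18.2 and 16.8 CPM in *Tpp1*-/- mice, had the lowest of these (log2 fold change 0.34 ± 0.12). Its groups did not overlap, alone among the 10 in Cb, where 8.67% of all genes did not. In F/M that held for *Dcn* alone, at 25.2 ± 1.03 and 27.8 ± 1.21 CPM (SD, n = 3), where 24.1% of all genes did not overlap. Median log2 fold changes were 0.09 in F/M and 0.08 in Cb, and the highest upper interval bounds were 0.71 and 0.65. Without Cb control replicate 3 the median in Cb was 0.19 and 9 of 10 values were above 0, and without Cb control replicate 1 or 2 it was −0.03 and −0.04. Without Cb *Tpp1*-/- replicate 2 it was 0.02. In F/M the median was 0.01 with 5 of 10 above 0 without *Tpp1*-/- replicate 1, and 0.04 without control replicate 2. The 5 blood genes were all below 0 in both regions (medians −0.60 and −0.88) and the 7 border macrophage genes tested were all above 0 in Cb (median 0.49), none called. None of the 12 endothelial, 12 mural cell, 8 border macrophage, 5 ependymal, 5 blood or 10 bone, cartilage and muscle genes was called between the genotypes at any age, as far as they were tested. At 1 and 3 months no gene of any list was called.

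**Figure D2:**
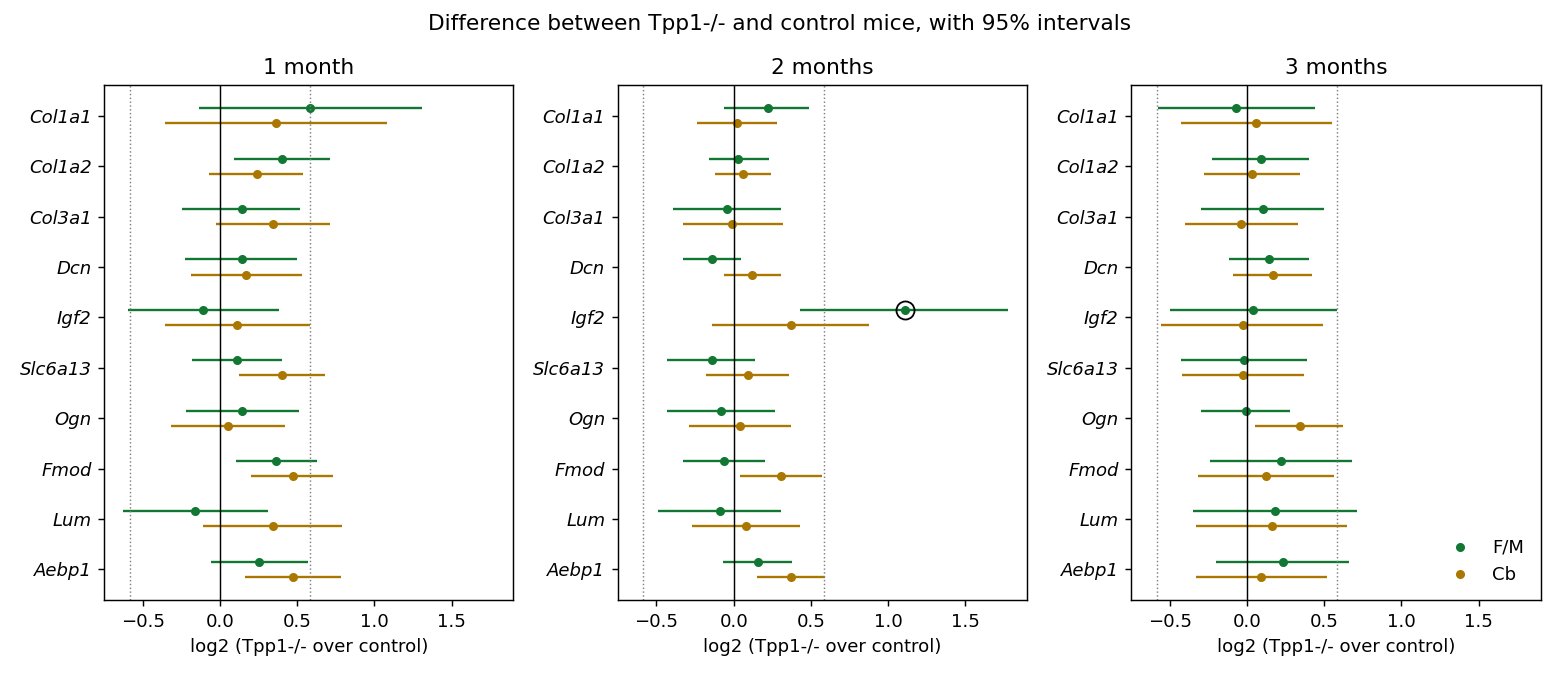
log2 fold change of *Tpp1*-/- over control mice for each gene in F/M (green) and Cb (brown) at 3 ages, with 95% intervals as bars, dotted lines at a change of 1.5 times and a ring around calls. *Igf2* in F/M at 2 months carries the ring, and 9 of 10 intervals in F/M at 2 months lie between the dotted lines.

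The difference between the regions in the *Tpp1*-/- effect was tested directly and called for 0 of 10 genes at each age by edgeR, DESeq2 and limma-voom alike, with no fold minimum, where 0.0%, 2.97% and 0.00581% of all genes were called at 1, 2 and 3 months. Of the 10 genes 0, 2 and 0 had an unadjusted p under 0.05, as did 1.94%, 11.5% and 3.51% of all genes. At 2 months the largest differences, with the effect in F/M taken from that in Cb, were −0.74 ± 0.37 for *Igf2* (adjusted p = 0.457) and 0.37 ± 0.16 for *Fmod* (adjusted p = 0.376). Without Cb *Tpp1*-/- replicate 1, *Fmod* was called, at 0.51 and an adjusted p of 0.0996. Without Cb *Tpp1*-/- replicate 2 the lowest adjusted p of the 10 genes was 0.509, and no other fit without 1 library brought it under 0.21. Changes of the effect with age were called for 0 of 10 genes in any of 4 comparisons by edgeR or limma-voom. In F/M 0.0218% of 18322 genes were called from 1 to 2 months and 0.393% from 2 to 3 months, and in Cb 1.28% and 1.44%. For *Igf2* in F/M the effect changed by 1.21 ± 0.38 from 1 to 2 months (unadjusted p = 0.00317, adjusted p = 0.372) and by −1.06 ± 0.39 from 2 to 3 months (adjusted p = 0.397). Both values use the 2-month libraries.

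*Col1a2* and *Col3a1* were higher in Cb than in F/M of control mice at each age, and no other gene of the 10 passed the test (adjusted p under 0.1, no fold minimum) at all 3 ages. Of the 16713 genes tested at each age, 21.7% were higher in Cb by this measure at all 3, so the 2 of 10 lay near the share of all genes. *Col1a2* was at 27.3, 30.2 and 30.2 CPM in F/M against 43.5, 44 and 42.6 CPM in Cb at 1 month, at 23.9, 21.6 and 21.1 CPM and 35.3, 31.9 and 31.3 CPM at 2 months, and at 19.3, 18.8 and 19 CPM and 25.5, 24.1 and 34.4 CPM at 3 months. The regions did not overlap at any age, as for 65.9%, 67.6% and 63.6% of all genes. Its log2 difference was 0.57 ± 0.14, 0.56 ± 0.08 and 0.56 ± 0.14 (SE, adjusted p = 0.00236, 6.68e-06 and 0.00345), which is a fold of 1.47 to 1.48 and just under the minimum for a call. Without Cb control replicate 3 the value at 3 months was 0.38.

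*Col3a1* was at 12.7 ± 0.875 CPM in F/M against 17.2 ± 3.84 CPM in Cb at 1 month (SD, n = 3, log2 difference 0.44 ± 0.17, adjusted p = 0.0362) and at 6.27 ± 0.92 and 7.96 ± 0.642 CPM at 2 months (0.34 ± 0.14, adjusted p = 0.0453). At 3 months it was at 3.82, 2.86 and 3.25 CPM in F/M against 5.29, 5.05 and 6.15 CPM in Cb. The regions did not overlap at 3 months, and the gene was called, with 0.72 ± 0.17 (adjusted p = 0.00231). At 1 month the adjusted p rose above 0.1 without F/M control replicate 3 or Cb control replicate 1, and without the latter the difference was 0.27 (adjusted p = 0.215). At 2 months it did so without F/M control replicate 2 (0.23, adjusted p = 0.179) or Cb control replicate 1 or 3.

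*Igf2* was called at 2 months, with 0.752, 0.483 and 0.786 CPM in F/M against 1.96, 1.63 and 1.55 CPM in Cb (1.33 ± 0.27, adjusted p = 0.000304). At 1 and 3 months its difference was 0.20 ± 0.21 and 0.06 ± 0.23 (adjusted p = 0.448 and 0.838). *Lum* was at 3.63 ± 0.407 CPM in F/M against 4.66 ± 0.699 CPM in Cb at 2 months (SD, n = 3, 0.37 ± 0.16, adjusted p = 0.0508) and at 4.03 ± 0.227 and 5.86 ± 1.49 CPM at 3 months (0.54 ± 0.22, adjusted p = 0.0585). Without Cb control replicate 3 the latter was 0.73. *Fmod* was lower in Cb at 2 months (20.1 ± 1.78 and 16.9 ± 0.859 CPM, −0.24 ± 0.11, adjusted p = 0.0695) and higher in Cb at 3 months (14.8 ± 0.955 and 21.1 ± 6.54 CPM, 0.51 ± 0.20, adjusted p = 0.042). The latter rested on Cb control replicate 3, which had 28.5 CPM beside 18.4 and 16.3 CPM, and without it the difference was 0.23 (adjusted p = 0.259). *Slc6a13* passed the test at 3 months alone, at 9.42 ± 0.969 CPM in F/M and 12.7 ± 2.98 CPM in Cb (0.43 ± 0.18, adjusted p = 0.0537), and without the same library the difference was 0.23 (adjusted p = 0.253). At 2 months *Col1a1* was higher in Cb (7.49 ± 0.632 and 9.22 ± 0.828 CPM, 0.30 ± 0.11, adjusted p = 0.0312) and *Aebp1* lower (20.2 ± 1.6 and 17.6 ± 0.493 CPM, −0.20 ± 0.10, adjusted p = 0.077), and neither passed at the other ages. *Dcn* and *Ogn* did not pass the test at any age, with differences from −0.13 to 0.18, but without Cb control replicate 3 *Dcn* had 0.28 at 3 months (adjusted p = 0.028). Of the differences that passed the test, those of *Col1a2* at each age, *Igf2* at 2 months and *Col3a1* at 3 months kept an adjusted p under 0.1 whichever control library was left out.

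In all, 0, 1 and 1 of 10 genes were called between the regions at 1, 2 and 3 months, where 36.9%, 39.3% and 37.7% of all genes were called. Single control libraries changed these counts, as *Col1a2* was called at 1 month without F/M replicate 2 or 3, at 2 months without F/M replicate 1 or Cb replicate 3, and at 3 months, together with *Fmod*, without Cb replicate 1 or 2, which gave 3 calls. *Col3a1* was called at 1 month and *Lum* at 3 months without Cb replicate 3. With no fold minimum 2, 7 and 5 of 10 passed, where 59.4%, 70.1% and 57.8% of all genes did. Median differences of the 10 were 0.11, 0.20 and 0.31 beside 0.0204, −0.0057 and 0.0416 over all genes. That of 1 month was 0.02 without Cb replicate 1, 0.06 without F/M replicate 2 and 0.17 without Cb replicate 3.

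Genes of other tissue were also called between the regions of control mice. Of 20 choroid plexus genes 5, 18 and 6 were called higher and 2, 0 and 1 lower in Cb at 1, 2 and 3 months, with medians of 0.38, 1.44 and 0.37, and their summed level was 596 to 1160 CPM in F/M and 1870 to 2240 CPM in Cb at 2 months. Of 5 blood genes 0, 4 and 4 were called higher in Cb, with medians of 0.30, 0.67 and 1.09. The further meningeal genes had medians of 0.01, 0.04 and 0.22, with 6, 5 and 7 called higher and 4, 4 and 1 called lower in Cb. The 20 other collagen genes had medians below 0 (−0.25, −0.51 and −0.44), with 6, 7 and 6 called higher and 6, 8 and 8 called lower. The part of other tissue in the differences of the 10 genes was not tested.

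**Figure D3:**
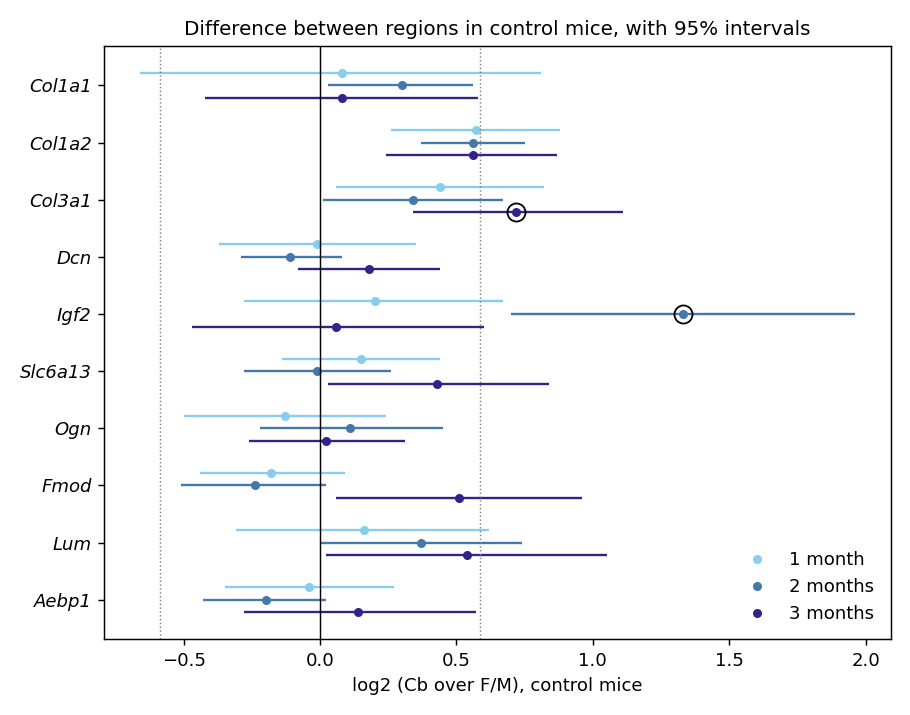
log2 difference of Cb over F/M in control mice for each gene at 1, 2 and 3 months, with 95% intervals as bars, dotted lines at a change of 1.5 times and a ring around calls. *Col1a2* lies at 0.56 to 0.57 at each age, and *Igf2* at 2 months lies apart from its own values at the other ages.

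The 3 fibrillar collagen genes had lower mean levels at each later age in both regions of control mice, and no other gene of the 10 did. In control F/M the means at 1, 2 and 3 months were 12.9, 7.49 and 6.95 CPM for *Col1a1*, 29.2, 22.2 and 19 CPM for *Col1a2* and 12.7, 6.27 and 3.31 CPM for *Col3a1*. In control Cb they were 13.6, 9.22 and 7.34 CPM, 43.4, 32.8 and 28 CPM, and 17.2, 7.96 and 5.49 CPM. From 1 to 3 months *Col3a1* was thus 3.83 times lower in control F/M and 3.14 times lower in control Cb, and in *Tpp1*-/- mice 3.92 and 4.06 times lower. For all 3 genes every 3-month library lay below every 1-month library of the same region and genotype, in each of the 4 combinations. Of all 16713 genes tested at each age, 18.1% did so in control F/M, 13.7% in control Cb, 15.4% and 8.1% in F/M and Cb of *Tpp1*-/- mice, and 1.85% in all 4. *Dcn* stood at 22.6, 26.6 and 25.2 CPM in control F/M over the same ages, *Aebp1* at 17.3, 20.2 and 18 CPM and *Lum* at 4.08, 3.63 and 4.03 CPM.

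The annotation release differed at every age, though the exon lengths of the 10 genes did not. The strand setting was 2 at 2 months and 1 at both 1 and 3 months, so it did not differ between these 2 ages. Because the release changed with age, age and processing cannot be told apart, and no test was made. A ratio within a library does not depend on how libraries are scaled. The CPM ratio of *Col3a1* to *Dcn* in control F/M was 0.547 to 0.582 at 1 month, 0.193 to 0.279 at 2 months and 0.117 to 0.154 at 3 months, and in control Cb it was 0.649 to 0.898, 0.285 to 0.357 and 0.163 to 0.253. These ranges of *Col3a1* did not overlap between ages in either region. For *Col1a1* the 2-month and 3-month ratios overlapped in control F/M (0.245 to 0.309 and 0.247 to 0.293) and in control Cb (0.326 to 0.415 and 0.176 to 0.429), and for *Col1a2* they did in control Cb (1.26 to 1.49 and 0.777 to 1.42). The same ratio for *Lum* was 0.165 to 0.193, 0.123 to 0.147 and 0.156 to 0.163 in control F/M. The median log2 ratio of 3 to 1 month over 20 other collagen genes was −0.68 in control F/M and −0.39 in control Cb, 16 of 20 lower in each, beside 0.02 and 0.01 over the 16713 genes tested at all ages. Over 23 genes of collagen processing and fibre assembly it was −0.22 and −0.19, and over 35 further meningeal genes −0.08 and 0.06. Lists of other cell types had medians away from 0 as well, at −1.22 and −0.35 over 5 blood genes, −0.38 and −0.48 over 6 border macrophage genes and 0.62 and 0.61 over 20 choroid plexus genes. Their part in the values of the 10 genes was not tested.

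**Figure D4:**
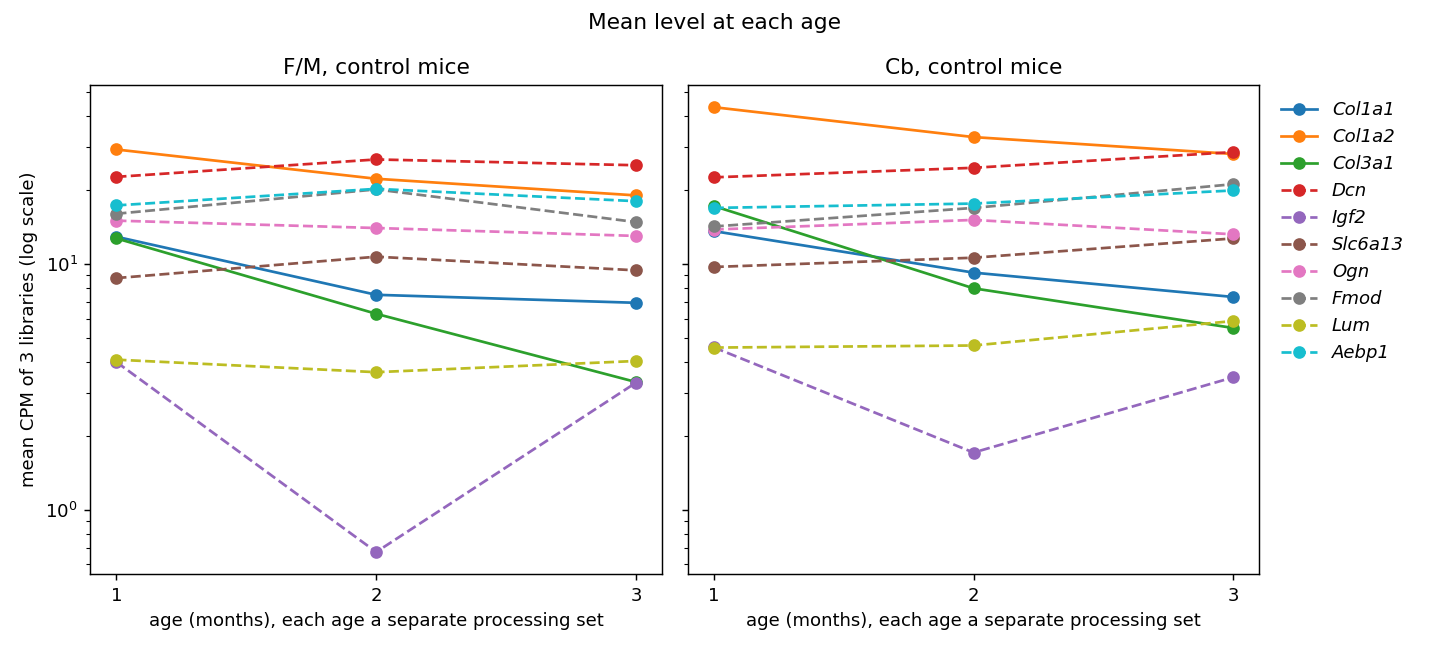
Mean CPM of 3 control libraries on a log axis at 1, 2 and 3 months in F/M and Cb, with solid lines for the collagen genes and dashed lines for the other 7. The collagen lines fall at each step in both regions, and *Igf2* is lowest at 2 months.

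*Igf2* followed another course. Its control means were 3.99, 0.674 and 3.29 CPM in F/M against 4.58, 1.71 and 3.46 CPM in Cb, so that the lowest level in both regions, and also in *Tpp1*-/- mice (1.43 and 2.23 CPM), belonged to the 2-month libraries. Those libraries were counted with the strand setting 2, against 1 at the other ages, and with the oldest of the 3 annotations, in which the shared part of *Igf2* was the same 3596 bases. The part of processing in this dip was not tested.

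The start of *Col3a1*, the gene of the 10 with the largest ratio of 1-month to 3-month levels, is shown as 250 bases before its RefSeq start (GRCm38.p6, chr1:45311288-45311537, plus strand), none of them in an annotated exon. Capitals mark a TATAAA match on the gene's strand, 117 to 112 bases before the start.
*Col3a1*: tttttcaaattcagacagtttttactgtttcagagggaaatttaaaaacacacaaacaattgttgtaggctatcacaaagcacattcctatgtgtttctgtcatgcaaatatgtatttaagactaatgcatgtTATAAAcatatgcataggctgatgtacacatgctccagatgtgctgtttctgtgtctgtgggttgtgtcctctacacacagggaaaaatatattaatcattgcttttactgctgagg
TATAAA on either strand was found in 12.4% of 32851 such windows of all genes. RefSeq windows were used for 7 of the 10 genes, not for *Col1a1*, *Dcn* and *Lum*, and 2 of 12 windows, those of *Col3a1* and *Ogn*, held TATAAA. The CCAAT motif, searched in the same way, was in 3 of 12 member windows and 33.8% of all windows. The GGGCGG motif was in 4 of 12 member windows and 32.7% of all windows. A match is a run of letters, not a site shown to be used.

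Once the mean of its group was taken from each value (log2 CPM), the 10 genes did not vary as a single block. Over 36 libraries the 45 pairs had a median Pearson's r of 0.25, and 7 pairs were above 0.5 and 7 below 0. These correlations are descriptions with no p, since the values of 2 genes in a library share its RNA, depth and scaling. The closest pair was *Fmod* and *Aebp1* (r = 0.86), with 0.65, 0.89 and 0.95 at 1, 2 and 3 months and 0.78 without the 2 libraries that stood apart. Other libraries lay as far from their groups, since the mean deviation over the 10 genes was −0.22 in F/M *Tpp1*-/- replicate 2 of 1 month, −0.18 in Cb control replicate 3 of 1 month and −0.18 in Cb *Tpp1*-/- replicate 1 of 2 months, beside 0.21 and 0.18 in those 2. Without all 5, a choice made after the data were seen, the r of this pair was 0.80. *Dcn* and *Lum*, the neighbours on chromosome 10, had r = 0.62, with 0.47 without the 2 libraries and 0.37 without the 5. *Col1a1* and *Col1a2*, whose products form 1 protein, had r = 0.77, with 0.81, 0.70 and 0.77 at 1, 2 and 3 months. Neither of the 2 libraries is among those of 2 months. The r of this pair was 0.57 or more without any 1 library, but 0.28 without the 2 and 0.27 without the 5. *Dcn* and *Lum* had negative r with the first pair over 36 libraries, −0.28 and −0.25 for *Dcn* with *Fmod* and *Aebp1* and −0.15 and −0.28 for *Lum*. Without the 2 libraries these were −0.08, −0.01, 0.20 and 0.06, and without the 5 they were −0.18, −0.37, 0.15 and −0.07, so the sign for *Lum* depended on these libraries. For *Dcn* the sign differed between ages. At 1, 2 and 3 months its r was −0.14, 0.30 and −0.73 with *Fmod* and 0.04, 0.19 and −0.80 with *Aebp1*. Cb control replicate 3 of 3 months had 28.5 CPM of *Fmod* and 27.5 CPM of *Aebp1* beside 18.4 and 16.3, and 15.8 and 16.5 CPM in the other controls.

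**Figure D5:**
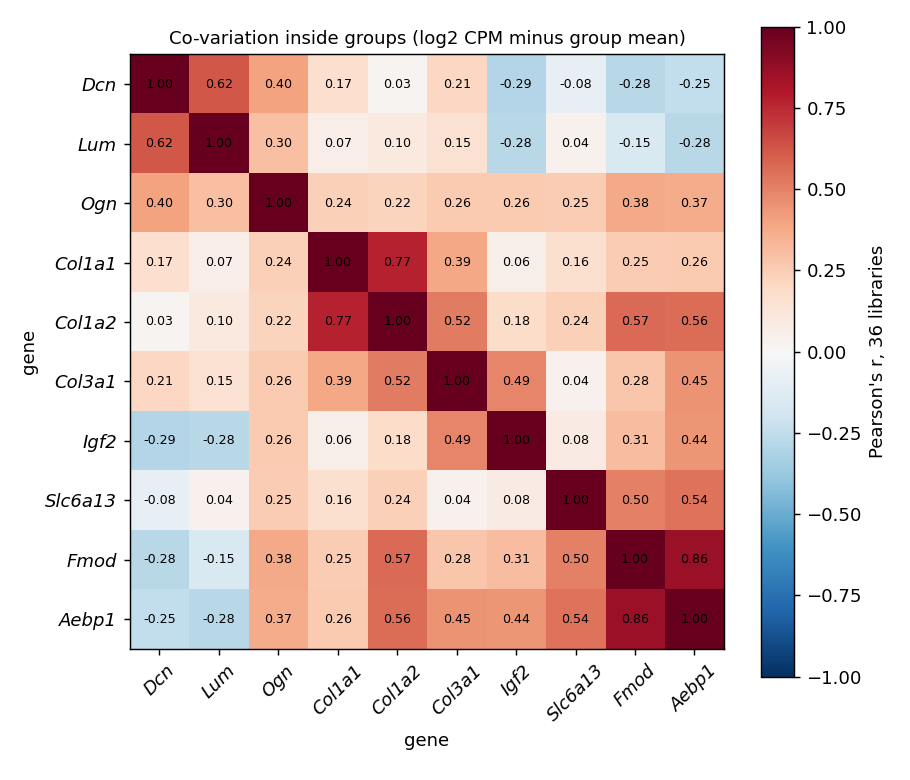
Pearson's r between the genes over 36 libraries, from log2 CPM minus the mean of each group, with red for positive and blue for negative values. *Fmod* and *Aebp1* form the reddest pair at 0.86, and *Dcn* and *Lum* are blue against both.

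The starts of *Fmod* and *Aebp1*, the pair with the highest r, are shown in the same way, at chr1:134037004-134037253 and chr11:5861616-5861865, both on the plus strand. Neither holds any of the 3 motifs on either strand, so no letter is capital, and 51.2% and 64.4% of their bases are G or C.
*Fmod*: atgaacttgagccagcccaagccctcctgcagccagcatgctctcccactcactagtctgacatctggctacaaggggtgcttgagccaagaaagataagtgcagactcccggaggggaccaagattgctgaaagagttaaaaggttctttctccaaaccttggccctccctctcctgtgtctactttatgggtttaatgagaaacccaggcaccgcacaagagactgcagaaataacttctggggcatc
*Aebp1*: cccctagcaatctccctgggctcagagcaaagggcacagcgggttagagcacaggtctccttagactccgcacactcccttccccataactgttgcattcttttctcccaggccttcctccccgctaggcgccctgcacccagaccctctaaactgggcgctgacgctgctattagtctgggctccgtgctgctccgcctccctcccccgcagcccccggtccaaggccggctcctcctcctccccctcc
The windows hold no annotated exon.

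The 10 other genes most like the mean of the 10 in this within-group variation, out of 16703, were *Thbs1* (r = 0.73), *Ntn4* (0.72), *Irgm2* (0.69), *Ntn1* (0.69), *Slc22a8* (0.67), *Cxcl12* (0.66), *Lhfpl2* (0.66), *Mrc2* (0.66), *Rrbp1* (0.64) and *Eps8* (0.64), each over 36 libraries. That mean did not stand for all 10 genes alike. The r of a gene with the mean of the others was 0.06 for *Lum*, 0.12 for *Dcn* and 0.22 for *Igf2*. For the rest it ran from 0.34 (*Slc6a13*) to 0.70 (*Col1a2*). *Thbs1* encodes the matrix protein thrombospondin 1, *Ntn1* and *Ntn4* encode netrins, *Slc22a8* an organic anion transporter, *Cxcl12* a chemokine and *Mrc2* an endocytic collagen receptor. For *Thbs1* the r was 0.74, 0.84 and 0.69 at 1, 2 and 3 months, while for *Lhfpl2* it was −0.05 at 3 months. At 2 months it was 0.20 for *Ntn4* and 0.30 for *Mrc2*. Between regions the r of *Eps8* was 0.11 in F/M and 0.92 in Cb, that of *Slc22a8* 0.31 and 0.92, and that of *Rrbp1* 0.36 and 0.83. Among the gene lists, 35 further meningeal genes had the highest median r, 0.40, and 10 of them were above 0.5. Blood genes had 0.36, endothelial and mural genes 0.23 each, choroid plexus genes 0.15, other collagen genes 0.09, border macrophage genes −0.09 and ependymal genes −0.28. The median over all other genes was 0, and 135 of them were above 0.5.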

How the data were processed

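Poly(A) RNA of 36 mouse libraries was sequenced as single reads of 50 bases. The authors aligned the reads with STAR 2.5.2b to GRCm38 and counted them per gene with featureCounts, and the deposited values are raw counts per gene. Per the file headers the 1-month counts used featureCounts 1.6.3, GENCODE M21 and strand setting 1, the 2-month counts featureCounts 1.6.2, M16 and setting 2, and the 3-month counts featureCounts 1.6.2, M18 and setting 1, so levels of different ages were not tested against each other. The headers name fractional counting, yet all values are whole.

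Each age was fitted with edgeR 4.0.16 (TMM, filterByExpr, quasi-likelihood test, Benjamini-Hochberg) over its 12 libraries, and changes with age in a fit of 36 libraries. A call needed an adjusted p under 0.1 and, except for region differences and changes of the effect, a fold of 1.5. Intervals used 8 or 24 residual degrees of freedom. Nothing in the sources used here states that libraries with the same number came from the same mouse, and the p-values measure the spread between these libraries. DESeq2 1.42.0, limma 3.58.1, other scalings and filters, a replicate block, a sex covariate and leaving out each library were alternatives. The scripts were tested on simulated data. The 10 genes and all gene lists were chosen with earlier results of these data known. From each list, the 5 called genes with the largest changes per comparison are named, and the 10 genes outside the set whose group-centred log2 CPM had the highest r with the mean of the set. Promoter windows are from RefSeq (GRCm38.p6).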

Additional observations from a re-analysis of the deposited data

How the results depend on the processing

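Of 148 alternatives over 16 counts of called genes that left no library out, 136 gave the same count, as did 274 of 288 fits without 1 library, and no direction of a call reversed. In F/M at 1 month, no filter gave 1 call (*Col1a1*) in place of 0. In F/M at 2 months, DESeq2, a call by all 3 tools, an adjusted p under 0.05 and the 6 compared libraries alone gave 0 in place of 1, and leaving out a library gave 0 to 1. *Igf2* was still called in 14 of 21 alternatives (log2 0.85 to 1.28, adjusted p 0.0233 to 0.376). The 21 leave out DESeq2 and the call by all 3 tools, both of which lost the call. In Cb at 2 months, no fold minimum gave 1 (*Aebp1*), and the region difference of the effect at 2 months had 0 to 1 without a library. Between regions, library totals gave 1, 2 and 4 calls at 1, 2 and 3 months, no fold minimum 2, 7 and 5, and leaving out a library 0 to 1, 1 to 2 and 1 to 3. *Igf2* at 2 months and *Col3a1* at 3 months were called in all 22 of their region alternatives. The cause of these changes was not tested.

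A replicate block changed no count of called genes. With it 0, 1 and 0 genes were called in F/M at 1, 2 and 3 months and 0 in Cb, and 0, 1 and 1 between regions. Deviations of same-numbered libraries correlated at −0.085 to 0.229, above 0.1 in every pair only for F/M and Cb controls of 1 month (0.124 to 0.198). With 3 libraries a group and 10 to 126 counts of *Igf2*, small changes of that gene were not detectable at this depth.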
